A study of Mus musculus with 8 samples.

Results

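Sorting nexins and vacuolar protein sorting (VPS) genes encode proteins that move cargo between endosomes, the Golgi, the lysosome and the cell surface. All genes whose symbol begins with Snx or Vps followed by a digit were taken from the array's annotation, which gave 65 of 19937 measured genes: 30 sorting nexins and 35 VPS-named genes. Where a symbol had several probe sets, the one with the highest mean over all arrays stood for the gene. The rule reads symbols and not changes, but the family was picked with earlier results of these data known.

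Sorting nexins bind phosphoinositides on endosomes through a PX domain. Members with an added BAR domain bend the membrane into tubules, in which cargo leaves the endosome with or without retromer, the complex of VPS26, VPS29 and VPS35. ESCRT complexes sort ubiquitinated cargo into vesicles inside the endosome for degradation, while HOPS and CORVET tether endosomes and lysosomes before they fuse.

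R1 mouse embryonic stem cells, which are male and of mixed 129X1 x 129S1 background, were used throughout. One group of 4 arrays came from cells given a pLKO.1 plasmid with a hairpin against Mkrn1 (shMKRN1), a ubiquitin ligase that also binds RNA, and the other group of 4 arrays from cells given the same plasmid with a hairpin against GFP (shGFP), a gene these cells lack. In both groups the medium held LIF and 15% serum, 2 µg of plasmid was introduced by lipofection 48 h after seeding, puromycin at 2 µg/mL was applied for 4 days, and total RNA was taken on day 6 after transfection. The knockdown rested on 1 hairpin and a pool of resistant cells, so an effect of losing Mkrn1 and any other effect of that hairpin cannot be told apart. The hairpin's sequence, as the labels give it, is shown in lower case because it defines the knockdown.
shMKRN1: gcgagatgttgcttatgcttt

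Mkrn1 itself measured 9.81, 9.81, 9.86 and 9.88 on the shMKRN1 arrays numbered 2, 4, 6 and 8, against 10.45, 10.45, 10.51 and 10.34 on the shGFP arrays numbered 1, 3, 5 and 7 (RMA log2 levels, the order used for every gene here). The groups lay apart, and the shMKRN1 cells kept 66.2% of the control level (95% confidence interval 61.0 to 71.7%; limma adjusted p = 0.000767; exact permutation p = 0.0286, the smallest possible with 4 against 4). Of 10 embryonic stem cell markers, only Nanog passed the limma test (higher by 0.25, adjusted p = 0.0256), and the summed marker level was 114.6 to 115.4 in shMKRN1 and 114.5 to 115.4 in shGFP. Of 12 fibroblast markers, Col1a1 and Pdgfrb rose (0.37 and 0.35); the sum was 82.9 to 85.3 in shMKRN1 and 82.3 to 83.9 in shGFP, and the means of 3 markers (Postn, Lum and Prrx1) lay below the level that 95% of odorant and vomeronasal receptor genes, silent here, stayed under. None of 8 primitive endoderm markers passed the test. The part of these markers in the results below was not tested. Arrays shMKRN1 8 and shGFP 7 stood apart from their groups on the leading principal component (37.6% of the variance). Both had higher scores than the rest of their group (7.46 and 23.2). Counts without these arrays are given where they bear on a result.

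In shMKRN1 cells, 5 members were higher and 1 was lower at a limma adjusted p of 0.05, and 59 did not pass. Snx1 and Snx6 had the largest increases, 1.5-fold and 1.40-fold, followed by Snx25, Vps11 and Vps28 at 1.17-fold to 1.25-fold. Vps33b was lower, at 0.80 of the control level. The 6 calls are 9.23% of the members, where 4.49% of all genes were called; 3.66% of all genes were called higher and 0.838% lower. The groups did not overlap for 18 members, 27.7%, against 14.1% of all genes, and 17 of the 18 were higher in shMKRN1 (10.6% of all genes lay apart in that direction and 3.51% in the other). The count depended on single arrays, as did that of all genes. Without shMKRN1 4, shMKRN1 6 or shGFP 3 only Snx1 was called (1.54% of members, against 1.94%, 1.55% and 1.63% of all genes). Without shMKRN1 2 only Snx1 and Snx6 were called (3.08%, against 1.77%). Without shGFP 1 or shGFP 5 only 3 members each were called (4.62%, against 2.53% and 3.76%). Without shMKRN1 8, 7 were called higher (10.8%, against 3.86% of all genes called). Without shGFP 7, 4 were called higher and 1 lower (7.69%, against 4.27%). Without shMKRN1 8 and shGFP 7 together, 7 members were called higher and 1 lower (12.3%, against 4.60%).

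Members were mostly well expressed, and the background rises with level. In all, 58 of the 65 lay above the median level of all genes (7.61), and none lay below 6.499 in both groups, the level that 95% of 1190 olfactory and vomeronasal receptor genes stayed under. Among genes above the median level, 5.48% were called higher, 1.19% lower, and 21.9% had groups that did not overlap. Of the 58 members above that level, 4 were called higher (6.90%), 1 lower, and 17 had groups that did not overlap (29.3%). Their median difference was 0.05. The median change over the 65 members was 0.07 on the log2 scale, against 0.01 over all genes and 0.04 over genes above the median level. The mean was higher in shMKRN1 for 49 members and lower for 16, while 52.8% of all genes had a higher mean; above the median level the shares were 72.4% of members and 63.4% of genes. An unadjusted p under 0.05 was reached by 22 members, 20 of them higher and 2 lower, where 19.5% of all genes reached it; above the median level it was reached by 34.5% of members and 27.3% of genes. Throughout, a difference is shMKRN1 minus shGFP in log2 units, and in such bulk samples fewer cells of a type and less RNA per cell cannot be told apart.

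**Figure D1:**
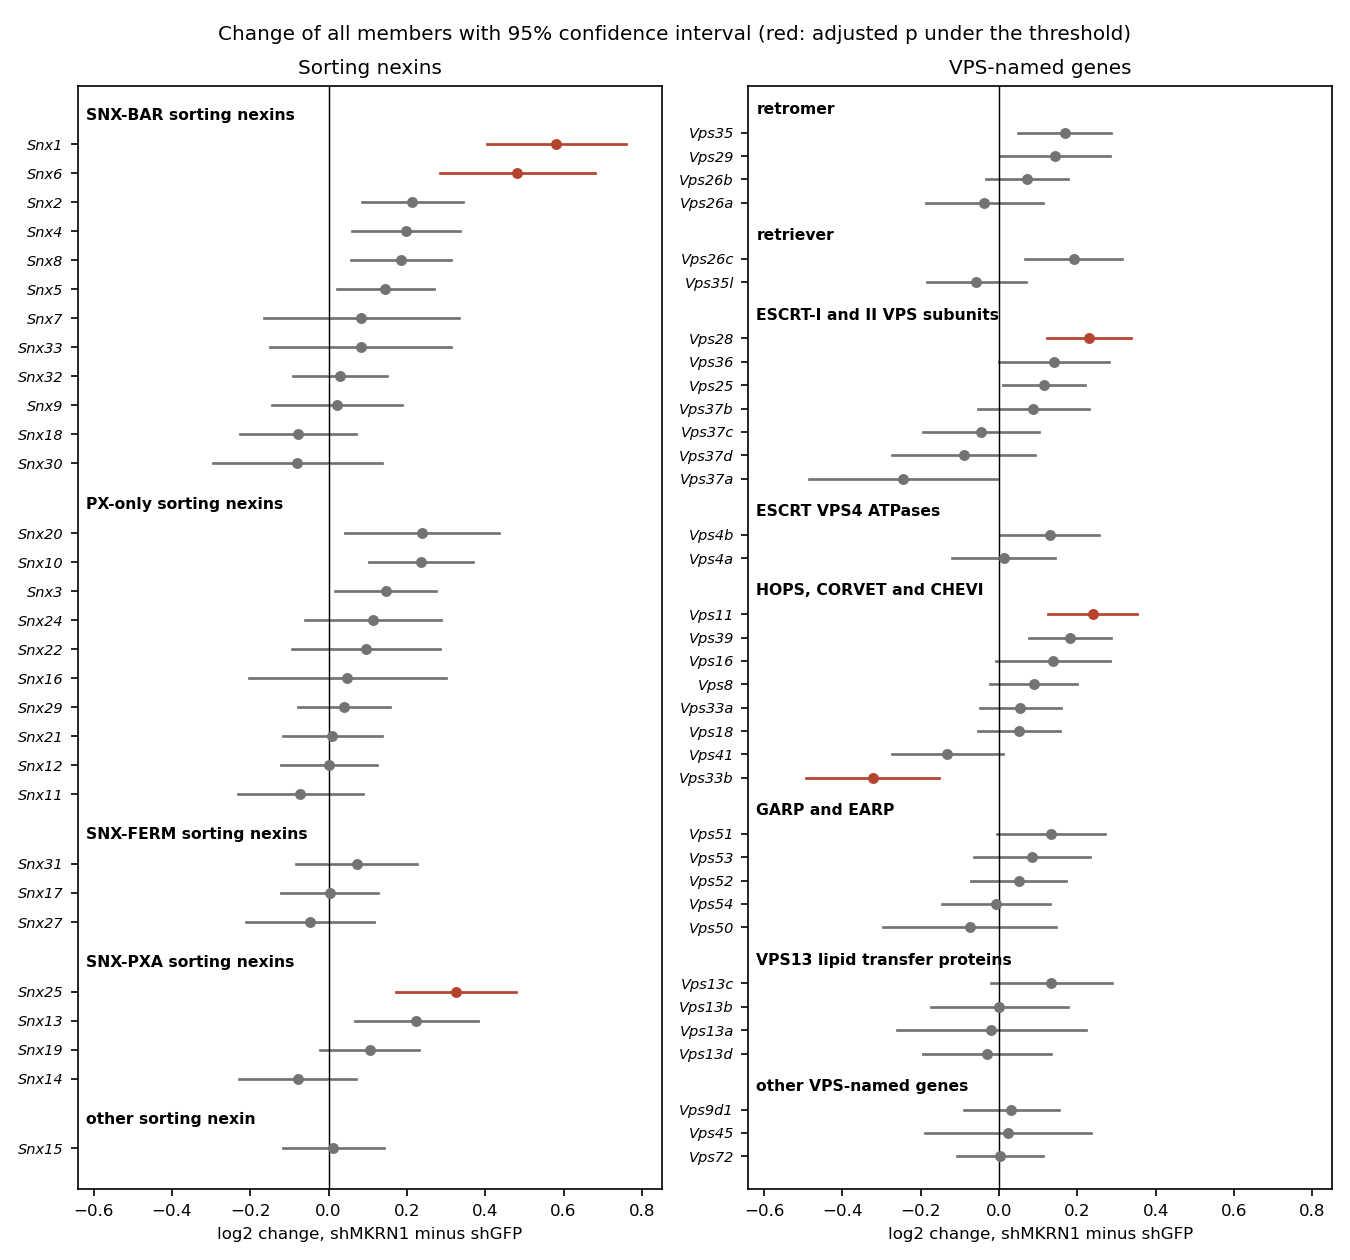
Change in log2 level (shMKRN1 minus shGFP, horizontal axis) of all 65 members, sorting nexins and VPS-named genes in separate panels grouped by complex; points are changes, bars 95% confidence intervals, and red marks the 6 members past the limma threshold. Snx1 (0.58) and Snx6 (0.48) lie farthest to the right and Vps33b (-0.32) farthest to the left, while most intervals include 0.

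The SNX-BAR nexins, which form membrane tubules, held the largest changes. Of 12 measured, 2 rose (Snx1 and Snx6), none fell, 6 had groups that did not overlap and the median change was 0.11. That is 16.7% called and 50% apart, against 6.67% and 21.9% of genes above the median level. Snx1 encodes a subunit of the coat now called ESCPE-1, which carries receptors such as the mannose 6-phosphate receptor from endosomes towards the Golgi. Its level was 8.98, 9.14, 9.07 and 8.90 in shMKRN1, against 8.57, 8.44, 8.50 and 8.25 in shGFP. Every shMKRN1 array lay above every shGFP array. The means were 9.02 ± 0.107 in shMKRN1 and 8.44 ± 0.138 in shGFP (SD, n = 4 each), a change of 0.58 (SE 0.080, 95% interval 0.40 to 0.76; limma adjusted p = 0.00492). Snx1 was called in every one of the 8 fits with 1 array left out, with an adjusted p of at most 0.0227.

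Snx6 encodes a partner with which SNX1 or SNX2 forms a dimer in that coat, and which also links it to the dynactin motor complex. Its level was 9.91, 10.10, 10.04 and 9.84 in shMKRN1, against 9.61, 9.44, 9.63 and 9.29 in shGFP. The groups lay apart, with array 8 the lowest in shMKRN1 and array 7 the lowest in shGFP. The means were 9.97 ± 0.119 in shMKRN1 and 9.49 ± 0.162 in shGFP (SD, n = 4 each), a change of 0.48 (SE 0.089, 95% interval 0.28 to 0.68; limma adjusted p = 0.0168). The call was lost without shMKRN1 4 (adjusted p = 0.0533), shMKRN1 6 (0.0625) or shGFP 3 (0.0639), with changes of 0.41 to 0.53 over all 8 such fits, and also when adjusted over all probe sets (0.0504).

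The other subunits of the coat did not pass the test. Snx2, the close relative of Snx1, measured 10.06, 10.14, 10.15 and 9.99 in shMKRN1, against 9.91, 9.89, 9.91 and 9.77 in shGFP. Its groups lay apart, but the difference of 0.21 did not pass (limma adjusted p = 0.0687). Snx5, the close relative of Snx6, measured 12.30, 12.41, 12.29 and 12.19 in shMKRN1, against 12.15, 12.17, 12.17 and 12.11 in shGFP. Here too the groups lay apart, and the difference of 0.15 did not pass (adjusted p = 0.179). Grouping these 4 subunits was chosen after their values were seen, so a contrast with the other nexins follows in part from the choice. Of the 4, 2 rose, all 4 had groups that did not overlap, and the median change was 0.35. Of the other 26 nexins 1 rose (3.85%), 6 had groups that did not overlap (23.1%), and the median change was 0.06. Above the median level, where all 4 lie, 6.67% of genes were called and 21.9% lay apart. Snx32, a further relative of Snx6, had a difference of 0.03 (95% interval -0.09 to 0.15; adjusted p = 0.838).

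The gap between relatives within an array was also compared. The 6 pairs were chosen after values were seen and so carry no test. The log2 level of Snx1 minus that of Snx2 lay between -1.09 and -0.997 in shMKRN1, against -1.52 to -1.34 in shGFP, so that the difference of Snx1 exceeded that of Snx2 by 0.37 (SE 0.044). For Snx6 minus Snx5 the range was -2.39 to -2.24 in shMKRN1, against -2.83 to -2.54 in shGFP, and the difference of Snx6 was larger by 0.34 (SE 0.078). In these pairs, and for Vps33b minus Vps33a below, no shMKRN1 array overlapped a shGFP array. Each of these 3 pairs holds a called member, so a shift of its gap follows in part from the choice. The SEs take no account of that choice. The gaps of the other 3 pairs overlapped: Vps26b minus Vps26a was 0.63 to 0.78 in shMKRN1 and 0.50 to 0.79 in shGFP, Vps4b minus Vps4a 1.88 to 1.97 in shMKRN1 and 1.73 to 1.89 in shGFP, and Snx25 minus Snx13 -1.45 to -1.32 in shMKRN1 and -1.66 to -1.34 in shGFP. Only the shift of each gap between groups is a measurement here, because levels of different probe sets are not comparable.

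**Figure D2:**
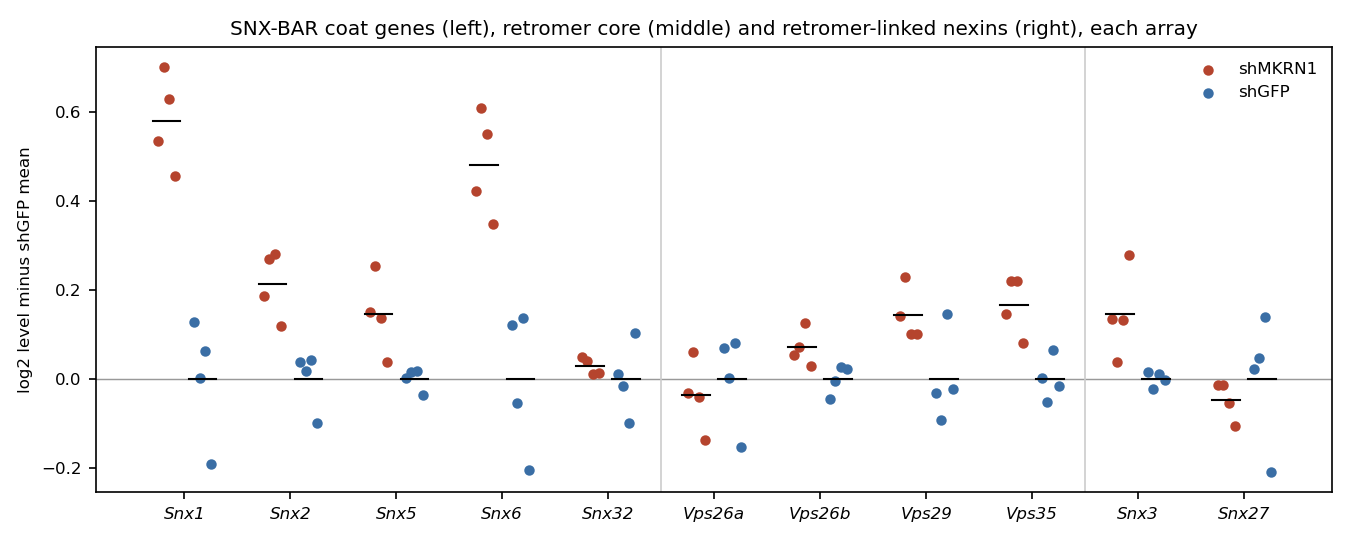
Log2 level minus the gene's own shGFP mean (vertical axis) on each array, for SNX-BAR coat genes at the left, the retromer core in the middle and the retromer-linked nexins Snx3 and Snx27 at the right; red points are shMKRN1 arrays, blue points shGFP arrays and black bars group means. Snx1 and Snx6 stand clear of their controls (0.58 and 0.48), Snx2, Snx5 and Vps35 lie just above theirs (0.21, 0.15 and 0.17), and Vps26a (-0.04) and Snx27 (-0.05) overlap.

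The remaining SNX-BAR genes did not pass the test. Snx4, which serves recycling and autophagy, had a difference of 0.20 (limma adjusted p = 0.106), and Snx8, which acts on early endosomes, of 0.18 (adjusted p = 0.102). Both had groups that did not overlap. The other 6 overlapped between groups: the endocytic nexins Snx9, Snx18 and Snx33 had differences of 0.02, -0.08 and 0.08, Snx7 and Snx30, relatives of Snx4, of 0.08 and -0.08, and Snx32 as given above.

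The SNX-PXA nexins combine a PX domain with PXA and, in most members, RGS homology domains and sit largely at the endoplasmic reticulum and its contacts. Of the 4, Snx25 rose (25%) and 2 had groups that did not overlap (50%). Of all genes 4.49% were called and 14.1% lay apart, against 6.67% and 21.9% of those above the median level. Snx25 was the only called member below that level, with a mean of 7.47 against 7.61. It is reported to promote the degradation of TGF-beta receptors. Its level was 7.62, 7.75, 7.67 and 7.51 in shMKRN1, against 7.30, 7.23, 7.45 and 7.26 in shGFP. The lowest shMKRN1 array lay just above the highest shGFP array. The change was 0.32 (SE 0.069, 95% interval 0.17 to 0.48; limma adjusted p = 0.0286). Among fits with 1 array left out it kept the call only without shMKRN1 8 or shGFP 5; without shMKRN1 2, 4 or 6 the adjusted p was 0.0769, 0.0859 and 0.0974, and without shGFP 1, 3 or 7 it was 0.0730, 0.0981 and 0.0522. With all arrays, the call was also lost with quantile normalization (0.0528) or median centring (0.0630) over the named genes and when adjusted over all probe sets (0.0698). Snx13 had groups that did not overlap and had a difference of 0.22 (adjusted p = 0.106). Snx19 had a difference of 0.11 and Snx14, whose loss causes a human cerebellar ataxia, of -0.08 (adjusted p = 0.595), and both overlapped.

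Upstream sequence is shown for the called members that have an entry, Snx1, Snx6 and Snx25, and for Snx5, the relative of Snx6 that did not pass. Each is the 250 bases before the RefSeq start on GRCm38.p6, 5' to 3' on the gene's own strand, which is the minus strand for all 4, with GC boxes (GGGCGG or its reverse complement CCGCCC) in capitals. The positions are chr9:66124887-66125136 for Snx1, chr12:54795663-54795912 for Snx6, chr8:46152442-46152691 for the first of 2 starts of Snx25 and chr2:144270573-144270822 for Snx5.
Snx1: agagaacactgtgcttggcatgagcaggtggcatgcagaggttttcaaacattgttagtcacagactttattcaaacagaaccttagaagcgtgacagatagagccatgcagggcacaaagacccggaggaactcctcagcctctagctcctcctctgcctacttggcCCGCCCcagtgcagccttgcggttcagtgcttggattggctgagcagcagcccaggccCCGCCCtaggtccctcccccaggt
Snx6: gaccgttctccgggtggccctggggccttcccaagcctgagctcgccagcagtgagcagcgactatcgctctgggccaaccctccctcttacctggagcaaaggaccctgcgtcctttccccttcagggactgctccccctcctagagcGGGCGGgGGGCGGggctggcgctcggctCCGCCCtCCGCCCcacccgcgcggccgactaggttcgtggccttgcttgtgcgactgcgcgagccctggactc
Snx25: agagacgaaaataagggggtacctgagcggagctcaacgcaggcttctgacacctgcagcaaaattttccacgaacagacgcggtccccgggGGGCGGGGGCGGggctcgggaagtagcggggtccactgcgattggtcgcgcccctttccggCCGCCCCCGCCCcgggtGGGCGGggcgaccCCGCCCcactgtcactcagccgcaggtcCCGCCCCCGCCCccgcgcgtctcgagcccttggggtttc
Snx5: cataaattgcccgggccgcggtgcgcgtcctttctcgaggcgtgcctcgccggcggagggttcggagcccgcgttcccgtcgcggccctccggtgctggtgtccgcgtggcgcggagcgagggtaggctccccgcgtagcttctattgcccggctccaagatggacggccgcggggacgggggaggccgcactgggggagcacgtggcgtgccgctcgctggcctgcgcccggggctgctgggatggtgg

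These windows hold 2 GC boxes for Snx1, 4 for Snx6, 8 for Snx25 and 0 for Snx5. In windows that also take in the 50 bases after the start, GGGCGG on either strand occurred in 34 of 53 windows of the 43 members with an entry (64.2%), against 32.7% of 32851 windows of all genes. These windows belong to 30 of the 43 members, among them all 3 called members with an entry. With only 3 called members, whether the box sets them apart cannot be judged. The windows of all genes were not matched to the members for expression level. The E-box CACGTG, the core of the motif bound by the lysosomal regulator TFEB and by other factors, occurred in 7 of the 53 member windows (13.2%), against 6.02% of all windows. It was found for Snx5, Snx8, Snx18, Vps16, Vps26a and Vps33a, none of which passed the test, and for none of the 3 called members with an entry. A match describes the letters only.

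Among the 10 nexins that carry a PX domain without BAR, FERM or PXA domains, none passed, 2 had groups that did not overlap and the median change was 0.07. The 2 are 20%, against 14.1% of all genes and 21.9% of genes above the median level. Snx10, needed for bone resorption by osteoclasts, came closest: it measured 7.98, 8.10, 7.99 and 7.95 in shMKRN1, against 7.86, 7.69, 7.81 and 7.70 in shGFP, a difference of 0.24 (limma adjusted p = 0.0546). Snx3, which brings Wntless to retromer, measured 11.37, 11.27, 11.37 and 11.51 in shMKRN1, against 11.25, 11.21, 11.25 and 11.23 in shGFP. Its groups lay narrowly apart, with array 8 the highest in shMKRN1, and the difference of 0.15 did not pass (adjusted p = 0.194). Snx20, which binds the selectin ligand PSGL-1, had a difference of 0.24 with overlapping groups (adjusted p = 0.167): array shGFP 7 read 7.40, the other shGFP arrays 7.01 to 7.06 and the shMKRN1 arrays 7.26 to 7.47. Without shGFP 7 its difference was 0.33 and passed (adjusted p = 0.0210). The other 7 (Snx11, Snx12, Snx16, Snx21, Snx22, Snx24 and Snx29) had differences of -0.07 to 0.11 and overlapped.

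The FERM-domain nexins, which recycle receptors to the surface, did not pass. Snx27, which links retromer to cargo through a PDZ domain, had a difference of -0.05 (95% interval -0.21 to 0.12; limma adjusted p = 0.796), Snx17, which recycles LRP1 and integrins, of 0.00 (-0.12 to 0.13; adjusted p = 0.988) and Snx31 of 0.07 (adjusted p = 0.649). Snx15, which has a MIT domain and belongs to none of these classes, had a difference of 0.01.

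**Figure D3:**
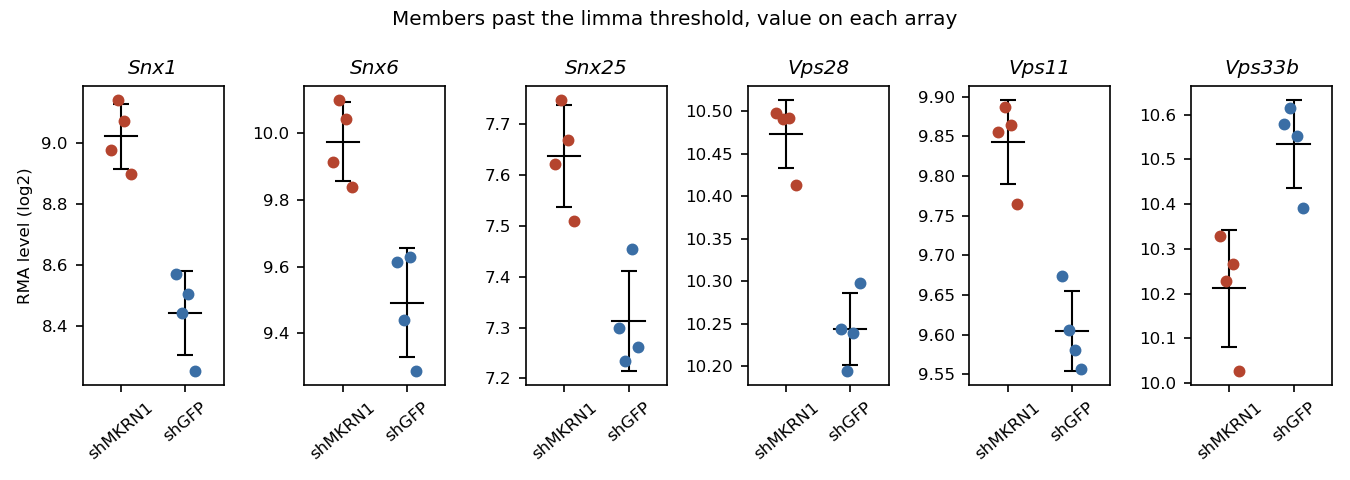
RMA log2 level (vertical axis) of the 6 members past the limma threshold on each array. In every panel shMKRN1 is at the left and shGFP at the right. Points are arrays, horizontal bars group means and capped vertical bars the SD of each group. The 4 shMKRN1 points lie above all shGFP points for Snx1, Snx6, Snx25, Vps28 and Vps11 and below them for Vps33b.

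None of the 4 retromer core genes passed the test, 2 had groups that did not overlap and the median difference was 0.11. Among genes above the median level, where all 4 lie, 21.9% had groups that did not overlap. Vps35, the scaffold of the complex, measured 10.94, 11.02, 11.02 and 10.88 in shMKRN1, against 10.80, 10.74, 10.86 and 10.78 in shGFP. The groups lay apart by a narrow margin, and the difference was 0.17 (95% interval 0.05 to 0.29; limma adjusted p = 0.113). Vps29, which docks regulators on the scaffold, measured 10.56, 10.65, 10.52 and 10.52 in shMKRN1, against 10.38, 10.32, 10.56 and 10.39 in shGFP, a difference of 0.14 with overlapping groups (adjusted p = 0.246). The arrestin-like subunits gave -0.04 for Vps26a (-0.19 to 0.11; adjusted p = 0.828) and 0.07 for Vps26b (-0.03 to 0.18; adjusted p = 0.471), the second with groups that touched without overlapping. The intervals of all 4 exclude a change as large as the 0.58 of Snx1. In retriever, a related complex that works with SNX17, Vps26c had a difference of 0.19 with groups apart (adjusted p = 0.0892) and Vps35l of -0.06 with overlap (adjusted p = 0.649).

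Among the 9 VPS-named ESCRT genes, 1 rose, none fell, 2 had groups that did not overlap and the median change was 0.09. That is 11.1% called and 22.2% apart, against 6.67% and 21.9% of genes above the median level. Vps28, a core subunit of ESCRT-I that binds ESCRT-II, measured 10.50, 10.49, 10.49 and 10.41 in shMKRN1, against 10.24, 10.19, 10.24 and 10.30 in shGFP. All shMKRN1 arrays were higher, by a change of 0.23 (SE 0.048, 95% interval 0.12 to 0.34; limma adjusted p = 0.0279). Among fits with 1 array left out the call held only without shMKRN1 8 or shGFP 7; the adjusted p was 0.0850, 0.0855 and 0.0999 without shMKRN1 2, 4 and 6, and 0.0690, 0.0994 and 0.0538 without shGFP 1, 3 and 5. It was also lost with quantile normalization (0.0528) or median centring (0.0630) over the named genes and when adjusted over all probe sets (0.0605). Vps37a, an ESCRT-I subunit, ran the other way without passing: it measured 9.60, 9.67, 9.52 and 9.27 in shMKRN1, against 9.95, 9.84, 9.76 and 9.50 in shGFP, a difference of -0.25 with overlap (adjusted p = 0.246). Its relatives Vps37b, Vps37c and Vps37d had differences of 0.09, -0.05 and -0.09, also with overlap. Of the ESCRT-II genes, Vps25 had a difference of 0.11 with groups apart (adjusted p = 0.213) and Vps36 of 0.14 with overlap (adjusted p = 0.253). The ATPase genes Vps4a and Vps4b, whose products take ESCRT filaments apart, had differences of 0.01 and 0.13 (adjusted p = 0.949 and 0.252), and the other Vps4b probe set had a difference of 0.01.

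Of 8 tethering genes of HOPS, CORVET and the related CHEVI complex, 1 rose, 1 fell, 6 did not pass, 3 had groups that did not overlap and the median change was 0.07. That is 25% called and 37.5% apart, against 6.67% and 21.9% of genes above the median level. Vps11, a subunit shared by HOPS and CORVET, measured 9.86, 9.89, 9.86 and 9.77 in shMKRN1, against 9.67, 9.61, 9.58 and 9.56 in shGFP. The groups lay apart, with a change of 0.24 (SE 0.051; limma adjusted p = 0.0298). With 1 array left out it kept the call only without shMKRN1 8 or shGFP 1; the adjusted p was 0.0876, 0.0942 and 0.104 without shMKRN1 2, 4 and 6, and 0.0937, 0.0611 and 0.0522 without shGFP 3, 5 and 7. Median centring over the named genes (0.0756) and adjustment over all probe sets (0.0654) also ended it.

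Vps33b, which with VIPAS39 makes up CHEVI and is mutated in the human ARC syndrome of kidney, liver and joints, was the 1 member that fell. Its level was 10.33, 10.23, 10.27 and 10.03 in shMKRN1, against 10.58, 10.62, 10.55 and 10.39 in shGFP. The highest shMKRN1 array lay just below the lowest shGFP array, and arrays 8 and 7 were the lowest of their groups. The change was -0.32 (SE 0.076, 95% interval -0.49 to -0.15; limma adjusted p = 0.0437). With 1 array left out the call held without shGFP 7 (adjusted p = 0.0277) and was lost without any of the other 7 arrays: the adjusted p was 0.0638, 0.101, 0.0989 and 0.0664 without shMKRN1 2, 4, 6 and 8, and 0.110, 0.132 and 0.0820 without shGFP 1, 3 and 5. Median centring of the arrays (adjusted p = 0.0703) and adjustment over all probe sets (0.0956) also ended the call, and the change lay between -0.37 and -0.26 in the fits with 1 array left out. Its relative Vps33a, the HOPS and CORVET subunit, had a difference of 0.05 (adjusted p = 0.598), and Vps33b minus Vps33a within an array lay between 0.13 and 0.41 in shMKRN1, against 0.56 to 0.81 in shGFP. Vipas39 had a difference of 0.08 (adjusted p = 0.616).

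The subunits particular to HOPS did not pass the test. Vps39, whose yeast counterpart binds a Rab of the late endosome and vacuole, measured 9.38, 9.39, 9.41 and 9.30 in shMKRN1, against 9.17, 9.23, 9.19 and 9.17 in shGFP, a difference of 0.18 with groups apart (limma adjusted p = 0.0608). Vps41 measured 10.30, 10.32, 10.29 and 10.11 in shMKRN1, against 10.35, 10.44, 10.46 and 10.30 in shGFP, a difference of -0.13 with overlap (adjusted p = 0.290). No direction is drawn from either. The shared subunits Vps16 and Vps18 had differences of 0.14 and 0.05, and Vps8, which is particular to CORVET, of 0.09 (adjusted p = 0.379), all with overlap.

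**Figure D4:**
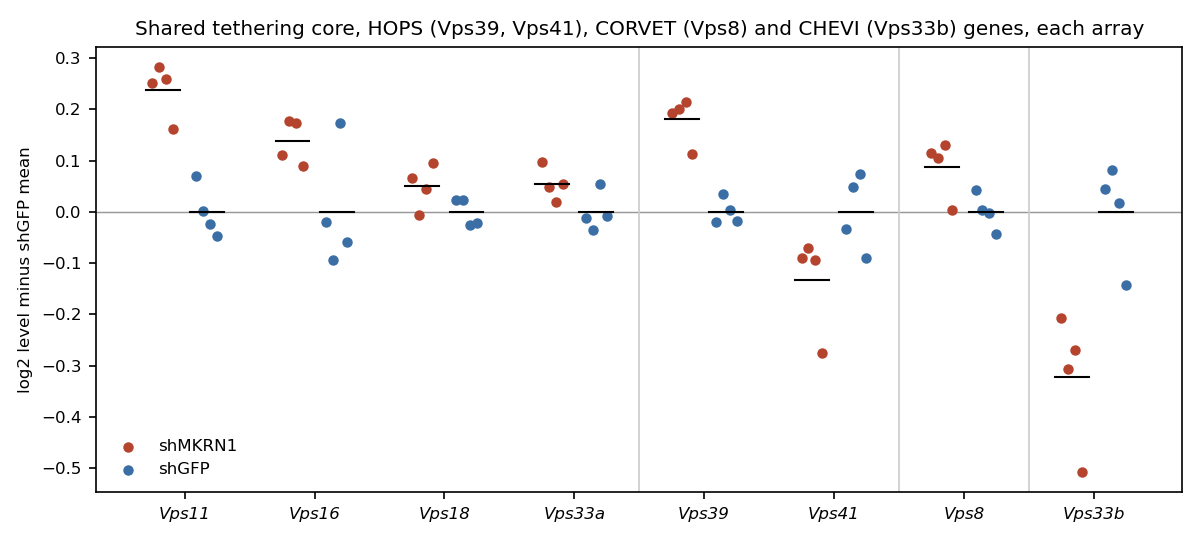
Log2 level minus the gene's own shGFP mean (vertical axis) on each array for the 8 tethering genes, with the subunits shared by HOPS and CORVET first, then HOPS, CORVET and CHEVI; red points are shMKRN1 arrays, blue points shGFP arrays and black bars group means. Vps11 (0.24) and Vps39 (0.18) lie above their controls without overlap, and Vps33b (-0.32) lies below.

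**Figure D5:**
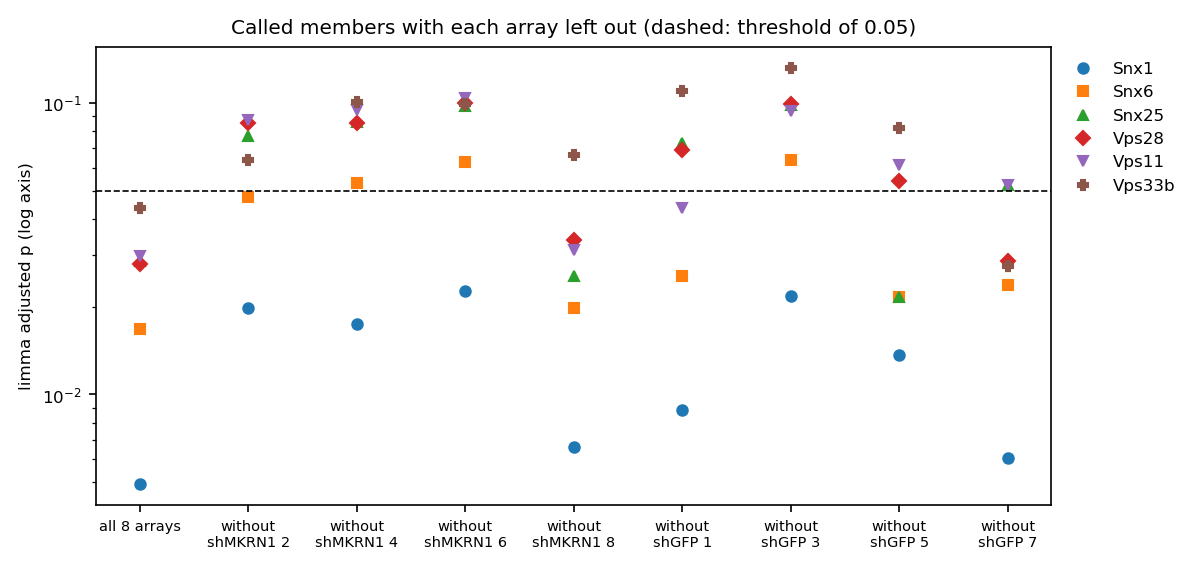
Limma adjusted p (vertical axis, log scale) of the 6 called members in the fit of all arrays and in fits with 1 array left out, with the threshold of 0.05 dashed. Snx1 stays below the line in every fit, Snx6 crosses it in 3 of 8, Snx25, Vps28 and Vps11 in 6 of 8 each and Vps33b in 7 of 8.

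The remaining VPS-named genes did not pass, and the groups of all of them overlapped. In GARP and EARP, which tether vesicles from endosomes at the Golgi and at recycling endosomes, Vps51, Vps52, Vps53, Vps54 and Vps50 had differences of 0.13, 0.05, 0.08, -0.01 and -0.07, with a median of 0.05. The 4 VPS13 genes, whose large products carry lipids between membranes, had differences of -0.02 (Vps13a), 0.00 (Vps13b), 0.13 (Vps13c) and -0.03 (Vps13d). Vps45, which acts on endosomal SNAREs, had a difference of 0.02 and Vps9d1, which has a VPS9 domain, of 0.03. Vps72, which shares the name but encodes a histone H2A.Z chaperone of chromatin remodelling complexes, had a difference of 0.00.

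Genes that work with these complexes were read from lists of 77 measured partners, of which 4 rose and 1 fell, with a median change of 0.04. That is 6.49% called, near the 6.67% of genes above the median level, where 70 of the 77 lie and the median was also 0.04. Among 13 cargo and sorting receptor genes, 2 rose. Lrp1, a large endocytic receptor recycled by SNX17, measured 9.38, 9.36, 9.33 and 9.28 in shMKRN1, against 8.98, 9.03, 9.06 and 8.94 in shGFP (change 0.34, SE 0.051; limma adjusted p = 0.00653). Sorl1, a sorting receptor that retromer binds, measured 8.95, 8.95, 9.10 and 8.97 in shMKRN1, against 8.63, 8.63, 8.82 and 8.69 in shGFP (0.30, SE 0.061; adjusted p = 0.0256). Both receptors had groups that lay apart. Igf2r, the mannose 6-phosphate receptor that the SNX-BAR coat carries, had a difference of 0.12 (adjusted p = 0.249), and the retromer cargo Wls of -0.08 (adjusted p = 0.856).

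Among 11 genes whose products make or remove the phosphoinositides that sorting nexins bind, or regulate those enzymes, 2 rose. Uvrag, the subunit that marks the endosomal form of the VPS34 complex, measured 9.11, 9.09, 9.11 and 8.93 in shMKRN1, against 8.81, 8.71, 8.73 and 8.49 in shGFP (change 0.38, SE 0.075; limma adjusted p = 0.0241). Becn1, the subunit common to the autophagic and endosomal forms, rose by 0.19 (SE 0.045; adjusted p = 0.0463). Pik3c3, which encodes VPS34 itself, had a difference of -0.13 (adjusted p = 0.202), Pik3r4 of 0.16 (adjusted p = 0.116) and Atg14, which marks the autophagic form, of 0.26 (adjusted p = 0.108). Of 16 endosomal Rab genes and tether partners, Plekhm1, which joins RAB7 to HOPS, fell: it measured 10.08, 9.96, 10.00 and 9.92 in shMKRN1, against 10.30, 10.27, 10.15 and 10.18 in shGFP (change -0.24, SE 0.057; adjusted p = 0.0460). The adjusted p of Becn1 and Plekhm1 lie just under 0.05, and the partner calls were not examined with 1 array left out. None of the 20 ESCRT genes not named VPS, the 12 of the CCC complex or the 5 of the actin-nucleating WASH complex passed, with median changes of 0.05, 0.07 and 0.05.

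The genes next to the 6 called members were read as a check on shared chromosomal position. Of 24 neighbours, the 2 nearest measured genes on each side, 2 rose and none fell. Over all genes 3.66% were called higher and 0.838% lower, and above the median level 5.48% were called higher. Baz1a, a chromatin remodelling gene 2 places from Snx6, rose by 0.69 (limma adjusted p = 0.00541), while Cfl2, the measured gene between them, had a difference of -0.01. Slc39a4, a zinc transporter gene beside Vps28, rose by 0.38 (adjusted p = 0.00636). Snx22, itself a sorting nexin beside Snx1, had a difference of 0.10 (adjusted p = 0.616).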

How the data were processed

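Total RNA of 8 samples, grouped by the hairpin in their titles, was hybridised to Affymetrix gene arrays. The deposited table holds log2 levels of 34760 probe sets made by the authors with RMA, per the submitters' processing notes; no RMA version is given in the sources used. RMA scales arrays to one another, so a change shared by most genes is largely removed, and it understates changes of dim probe sets. The distributions of the deposited values were still not equal: array medians were 7.14 to 7.24. Further scaling moved the counts, as given below. The number of arrays limits the precision, and the labels do not say whether samples came from separate transfections, so the spread behind each p-value may be technical.

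Probe sets with exactly 1 symbol (21640; 1321 had several and 11799 were not named) gave 19937 genes, each represented by its highest-mean row. The difference shMKRN1 minus shGFP was fitted over the whole table with limma 3.58.1 in R 4.3.3 (lmFit, eBayes, 6 residual and 4.00 prior degrees of freedom, no covariate, no filter on low values), two-sided, with Benjamini-Hochberg adjustment over 19937 genes and a threshold of 0.05. The fit was also run on simulated data with 200 of 19937 genes changed. The simulated noise was independent between arrays, so it held nothing like the departures of arrays shGFP 7 and shMKRN1 8. No result here rests on that run. Mkrn1 was also tested with an exact permutation over 70 assignments. All 65 members matched RefSeq by Entrez number, and 43 had a promoter entry.

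The members, complexes, partner lists, markers and naming rule were chosen with earlier results of these data known. The rule named every called member, the retromer genes, per class the member with the smallest p and the one with the highest mean, the 5 largest changes in each direction above the median level, and called partners; further genes, and the pairs of relatives, were chosen after their values were seen. M6pr and Ubap1 were not analysed here. Alternatives changed the scaling, the filter, the probe set rule, the genes adjusted over, the variance model and the arrays included.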

Additional observations from a re-analysis of the deposited data

Results flagged for a closer look

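In shMKRN1, 1 array stood far from the other 3 for 2 members, as judged by the gap to its nearest neighbour over the group's whole range (Dixon's ratio). For Vps28 the ratio was 0.910: array shMKRN1 8 read 10.41 and the others 10.49 to 10.50, a gap smaller than the change of 0.23. For Vps41 the ratio was 0.889: array shMKRN1 8 read 10.11 and the others 10.29 to 10.32. Chance flags about 1 in 20 groups, and 62 groups were checked (30 named members and Mkrn1, each in both hairpins).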

How the results depend on the processing

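The alternatives moved the counts of called members more than the changes. The count of members called higher, 5, was 12 among genes above the median level and 12 with a trended, robust variance, 14 with array weights and 1 when adjusted over all probe sets. It was 3 with quantile normalization over the named genes and 2 with median centring over them, both chosen after seeing the data, and 1 to 7 with 1 array left out. The count called lower, 1, was 0 with median centring, 0 when adjusted over all probe sets, 2 with array weights and 0 to 1 with 1 array left out. Without arrays shGFP 7 and shMKRN1 8 together, also chosen after seeing the data, 7 were higher and 1 lower. The members' median of 0.07 was 0.0267 with quantile normalization over the named genes, which put the median of all genes at -0.01. It was 0.0958 with median centring over the whole table, which put the median of all genes at 0.0327. With 1 array left out the members' median lay between 0.05 and 0.07.

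Over all genes, 729 higher and 167 lower calls became 617 and 431 with that quantile normalization, 445 and 192 with centring over the named genes, 806 and 290 with quantile normalization over the whole table and 875 and 125 with median centring over it. With array weights the calls were 1933 and 824, and with a trended, robust variance 1225 and 324. They were 1285 and 310 in the fit of genes above the median level only, and 321 and 57 when adjusted over all probe sets. With 1 array left out, 1.55% to 4.27% of all genes were called, against 4.49% with all arrays.

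Only Snx1 was called in every one of the 18 alternatives. Signs turned for members that were never called. Snx15 gave -0.0158 with quantile normalization, -0.0517 with it over the named genes, -0.0116 with centring over them and -0.00523 with array weights. Vps13b gave -0.0333, -0.0594 and -0.0236 under the same 3 scalings and -0.0267 without both arrays. Vps72 gave -0.0368, -0.0555 and -0.0220 under them and -0.0273 with array weights, and Vps9d1 -0.0102 with quantile normalization over the named genes. With 1 array left out the ranges were -0.0180 to 0.0417 (Snx15), -0.0665 to 0.0488 (Vps13b), -0.0251 to 0.0209 (Vps72), -0.147 to 0.00174 (Vps50) and -0.141 to 0.00828 (Snx30). The causes were not tested. No paired analysis was possible because the groups share no replicate number in the labels, and nothing there ties neighbouring numbers together.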

Other observations

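Array shMKRN1 8 was the lowest of its group for 44 of the 65 members, 67.7%, against 55.0% of genes above the median level and 34.3% of all genes. Array shGFP 7 was the lowest of its group for 33 members, 50.8%, against 51.9% of genes above the median level and 32.0% of all genes. The median of the members' levels minus their shGFP means was 0.10, 0.07, 0.06 and 0.03 on shMKRN1 arrays 2, 4, 6 and 8, against 0.02, 0.01, 0.04 and -0.05 on shGFP arrays 1, 3, 5 and 7. By this median the lowest shMKRN1 array and the highest shGFP array overlapped.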
